A study of Mus musculus with 6 samples.

Results

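The proteasome is described here through the 49 genes whose array probe sets carried a single symbol of the families Psma to Psmg followed by a number, out of 18193 genes with a single symbol in the data. The 49 genes had 103 probe sets, and each gene was read from the 1 with the highest mean over all arrays. They comprise subunits of the core particle, subunits of the regulatory particle, assembly chaperones, activators and an inhibitor. Psmc3ip and Psme3ip1 match the symbol pattern but are not proteasome subunits, and Psme2, the partner of Psme1, was not a member because its probe set carries 2 symbols.

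Total RNA of hearts was measured on Affymetrix arrays in 3 groups of 2 arrays. The first group was apoE-deficient mice on the B6 background that received rosiglitazone, an agonist of the nuclear receptor PPAR gamma used against diabetes, at 30 mg per kg and day from an age of 6 months for 2 months; the labels call these hearts failing. The other groups were untreated apoE-deficient mice on the B6 background and untreated wild type B6 mice. All mice were 8 months old and ate a chow with 7% fat and 0.15% cholesterol, and the labels name no Cre or tissue-specific promoter for the apoE defect. Separate animals, pools or repeat hybridisations of 1 extract are all possible for the 2 arrays of a group, as the labels do not say, so the p-values measure the spread between arrays, which may be technical.

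The proteasome degrades proteins marked with ubiquitin. Its core is a barrel of outer rings of alpha subunits, which gate the entrance, and inner rings of beta subunits, which hold the cutting sites: Psmb5, Psmb6 and Psmb7 in the constitutive form. In immune cells and under interferon the core is built with Psmb8, Psmb9 and Psmb10 in their place, as the immunoproteasome, which is known for making peptides that fit MHC class I molecules. The regulatory particle caps the barrel, recognises and removes ubiquitin, and unfolds the substrate with a ring of ATPases. In heart muscle this route turns over sarcomere proteins, and the transcription factor Nfe2l1 is known to raise subunit genes together when proteasome activity is short.

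The upstream sequences of 4 catalytic genes are shown, as the comparison of the constitutive with the immunoproteasome core uses these genes. It also uses Psmb7, which had no window, and Psmb10, whose window held none of the motifs searched and is not shown. Each run holds the 250 bases before the gene's RefSeq start on mouse build GRCm38.p6, 5′ to 3′ on the strand of the gene. Psmb5 lies at chr14:54617996-54618245 on the minus strand, Psmb6 at chr11:70525107-70525356 on the plus strand, Psmb8 at chr17:34197945-34198194 on the plus strand and Psmb9 at chr17:34187331-34187580 on the minus strand. Capitals mark a match to TGACNNNGC, the core of the antioxidant response element, in Psmb5 and Psmb6, and a match to TTCNNNGAA, the gamma-interferon activated site, in Psmb8; the Psmb9 window holds neither, nor GAAANNGAA, the core of the interferon-stimulated response element.
Psmb5: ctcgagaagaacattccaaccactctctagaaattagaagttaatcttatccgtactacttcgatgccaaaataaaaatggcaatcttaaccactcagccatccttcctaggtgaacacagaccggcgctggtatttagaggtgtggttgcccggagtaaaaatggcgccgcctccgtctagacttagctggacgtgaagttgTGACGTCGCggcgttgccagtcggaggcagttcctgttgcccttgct
Psmb6: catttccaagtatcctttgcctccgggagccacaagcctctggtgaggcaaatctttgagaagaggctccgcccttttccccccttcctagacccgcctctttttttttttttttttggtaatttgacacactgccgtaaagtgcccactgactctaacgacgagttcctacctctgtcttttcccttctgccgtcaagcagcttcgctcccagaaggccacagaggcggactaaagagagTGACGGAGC
Psmb8: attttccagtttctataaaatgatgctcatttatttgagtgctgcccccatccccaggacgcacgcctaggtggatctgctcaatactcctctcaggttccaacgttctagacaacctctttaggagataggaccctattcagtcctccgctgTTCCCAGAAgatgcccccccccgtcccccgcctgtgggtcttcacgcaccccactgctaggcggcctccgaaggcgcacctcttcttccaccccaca
Psmb9: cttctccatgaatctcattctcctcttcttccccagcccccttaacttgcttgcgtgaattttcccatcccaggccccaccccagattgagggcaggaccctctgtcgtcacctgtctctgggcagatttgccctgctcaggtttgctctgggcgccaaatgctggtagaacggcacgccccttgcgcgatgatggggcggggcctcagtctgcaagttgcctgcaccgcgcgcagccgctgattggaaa

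The first base of the match lies 47 bases before the start in Psmb5, 9 bases before it in Psmb6 and 97 bases before it in Psmb8. Windows were used for 41 of the 49 members and were searched on both strands. The search of the members left out a chromosome that the search of all genes kept. The shares of members and of all genes therefore do not rest on quite the same rule. TGACNNNGC occurred in 5 of the 41 members, or 12.2%, which besides Psmb5 and Psmb6 were Psmc6, Psmd9 and Psmd12, and in 11.5% of all 27025 genes with windows of the same length. TTCNNNGAA occurred in Psmb8 and Psmg1, 4.88% of the members against 8.13% of all genes. GAAANNGAA occurred in Psmb3, Psmd4 and Psmd9, 7.32% against 8.18%. The CCAAT box occurred in 16 members, 39.0% against 37.5%, Psmb9 among them. GAANNTTC, a pair of heat shock element units, occurred in Psmb5, Psmb9 and Psmf1, 7.32% against 7.73%, and is not marked by capitals. These shares are descriptions of letters, and a window without a match says nothing about the factor.

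The deposited signals were not brought to a common brightness: trimmed mean signals of treated hearts were 341 and 263, those of untreated apoE-deficient hearts 126 and 130, and those of B6 hearts 175 and 149, so brightness cannot be told apart from group. The arrays were therefore quantile-normalized, and every level below is log2 of the normalized signal plus 11.1, called a log2 level; a log2 difference is between group means on that scale. Apoe read 11.91 and 11.86 in B6 hearts, 5.24 and 6.29 in untreated and 6.20 and 6.25 in treated apoE-deficient hearts, low in both apoE-deficient groups as labelled. All 10 heart muscle markers were measured. Transcripts of other tissues moved with treatment: the summed normalized signal of 9 airway and lung genes was 14967 to 15789 on treated arrays against 286 to 339 on untreated and 185 to 259 on B6 arrays, and that of the adipocyte genes 31308 to 31972 against 8820 to 9026 and 9184 to 9952.

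Proteasome genes were bright in the heart. Of the 49 members, 47 passed the filter on dim probe sets, with a median log2 level of 10.61 against 7.75 over all 13236 genes that passed. Psmb11, the thymus form of the catalytic subunit, ran from 3.89 to 5.07 over the 6 arrays and Psma8, the testis form of an alpha subunit, from 3.71 to 5.47; both stayed below the filter and were not tested. The standard error of a log2 difference was also small, with a median of 0.064 against 0.15 over all genes.

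Treated hearts were compared with untreated apoE-deficient hearts to see what accompanied the drug and heart failure. Of the 47 members tested, 12 fell and 3 rose (limma, Benjamini-Hochberg adjusted p under 0.05 over all probe sets). The 12 that fell were Psmb3, Psmb5, Psmb6, Psmc3, Psmd1, Psmd2, Psmd3, Psmd6, Psmd13, Psmg1, Psmg2 and Psme1, and the 3 that rose were Psma3, Psmb8 and Psme4. This is 25.5% lower and 6.38% higher, beside 12.3% of all tested genes lower and 11.4% higher. The members' standard errors were smaller, as given above, so an equal log2 difference passed more easily among them. Shares among genes of like level were not counted in any comparison. The median log2 difference was -0.11 over the members and -0.03 over all genes, and 31 of the 47 lay below the median of all genes. On the signals as deposited, without scaling, all 47 members were called higher in treated hearts and none lower, and those arrays were the brightest; the median of all genes then was 1.14 and that of the members 1.06. With array medians centred 12 members were called higher and 3 lower. Psmb3, Psmd1, Psmd6, Psmd13 and Psmg2 then turned above 0 but stayed below the median of all genes, which was 0.24. Scaling to the spike-in controls gave 7 higher and 6 lower, and scaling to trimmed means 2 and 18. How many of all tested genes were called under each of these scalings was not counted. The 3 lower with medians centred were Psmb7, Psmc3 and Psmd2, and the 6 lower when scaled to the spike-in controls were these with Psmb5, Psmb6 and Psme1. Psmb7 was not among the 12. Under all 6 scalings, the reported one included, each of the 12 lay below the median of all genes. Of the 3 that rose, all but Psme4 lay above it under each scaling. These genes were picked on the reported values, so this is a description. The members' median lay below that of all genes by 0.08 after quantile normalization, by 0.09 both on unscaled signals and with medians centred, which give the same value by construction, by 0.15 after trimmed-mean scaling and by 0.13 after scaling to the spike-in controls. The count of falls went from 12 to 6 without treated array 1, to 4 without untreated apoE-deficient array 1 and to 6 without untreated apoE-deficient array 2, and the count of rises from 3 to 5 without either B6 array. Without an intensity trend in limma's variance model no member passed in any of the 3 comparisons; at an unadjusted p under 0.05 that fit gave 3 higher and 8 lower in this one.

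**Figure D1:**
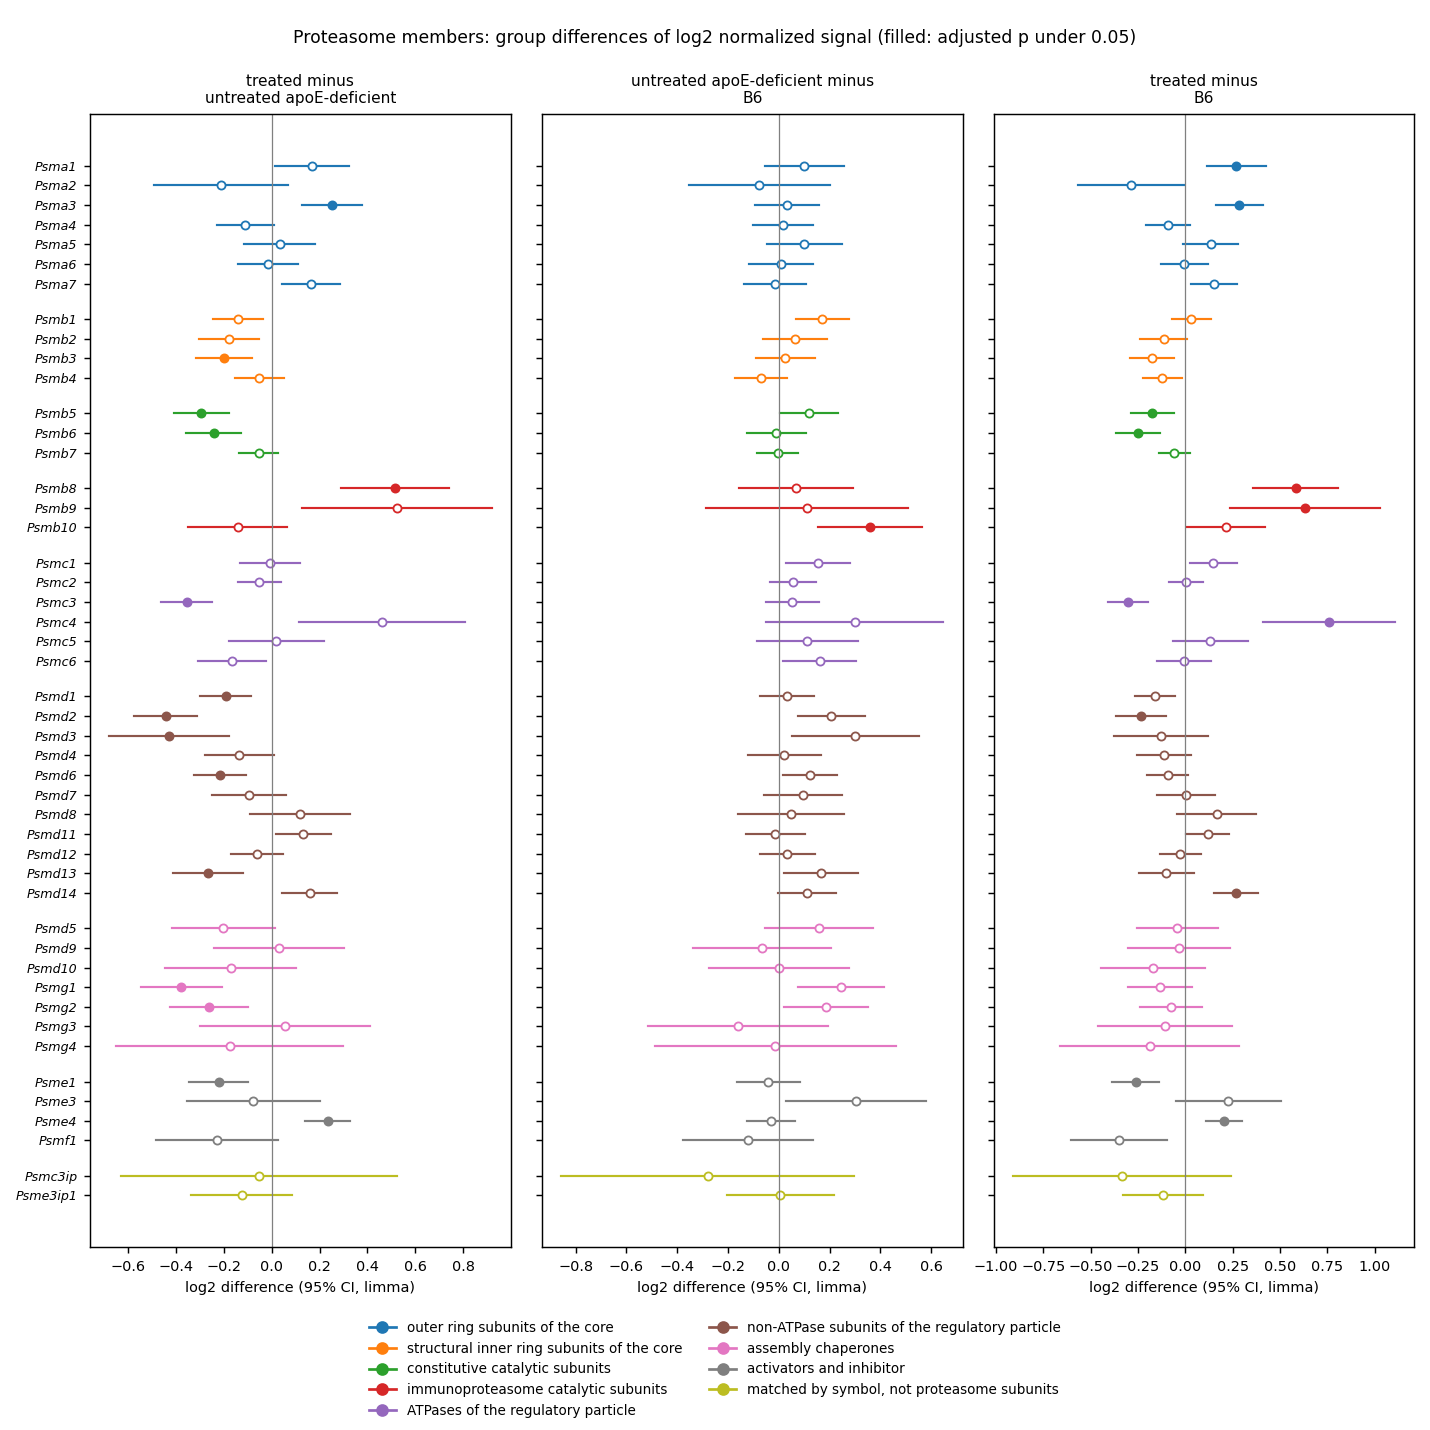
Log2 difference of normalized signal for each tested member in the 3 comparisons, with 95% confidence intervals from limma; colours are classes of subunits and filled points have an adjusted p under 0.05. In treated against untreated apoE-deficient hearts, filled points of the regulatory particle, the constitutive catalytic subunits and the chaperones lie on the lower side, while Psmb8 lies at 0.52; on unscaled signals every point of that panel would lie above 0.

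Untreated apoE-deficient hearts were compared with B6 hearts for the effect of the genotype. Psmb10 was the only member that passed, higher by a log2 difference of 0.36 ± 0.09 (SE; limma adjusted p = 0.049), and no member was lower by its chosen probe set. Over all tested genes 3.85% were higher and 4.66% lower. At an unadjusted p under 0.05 limma gave 12 members, all of them higher. The same cut gave 1582 higher and 1750 lower among all 13236 tested genes. The median over the members was 0.05 against 0.00 over all genes, and 34 of the 47 differences were above 0. Scaling to the spike-in controls called 17 members higher and scaling to trimmed means 3, with none lower and 0.23 and 0.09 as the members' median beside 0.12 and -0.01 over all genes. How many of all tested genes were called under these scalings was not counted. On unscaled signals and with array medians centred no member passed in limma (0 higher and 1 lower, and 2 higher and 1 lower, at an unadjusted p under 0.05), and the members' median was -0.25 and -0.06, still above that of all genes at -0.32 and -0.13. The count of 1 became 0 without either untreated apoE-deficient array or without B6 array 2, and 2 without B6 array 1 or without either treated array.

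Treated hearts were also set against B6 hearts. The treated arrays are those of the first comparison and the B6 arrays those of the second, so these counts are not independent of the others. Of the 47 members, 7 rose (Psma1, Psma3, Psmb8, Psmb9, Psmc4, Psmd14 and Psme4) and 5 fell (Psmb5, Psmb6, Psmc3, Psmd2 and Psme1). That is 14.9% higher and 10.6% lower beside 8.78% and 9.87% of all tested genes. The median was -0.06 over the members and -0.03 over all genes. On unscaled signals 46 members were called higher and none lower, with scaling to the spike-in controls 24 and none, with medians centred 12 and 1 and after trimmed-mean scaling 4 and 9. In that order the members' median was 0.80, 0.23, 0.09 and -0.08, beside 0.83, 0.29, 0.12 and -0.01 over all genes. The calls among all genes under these scalings were not counted. Without either B6 array the count of rises went from 7 to 4. The count of falls went from 5 to 2 without treated array 1, to 3 without B6 array 1 and to 2 without B6 array 2.

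**Figure D2:**
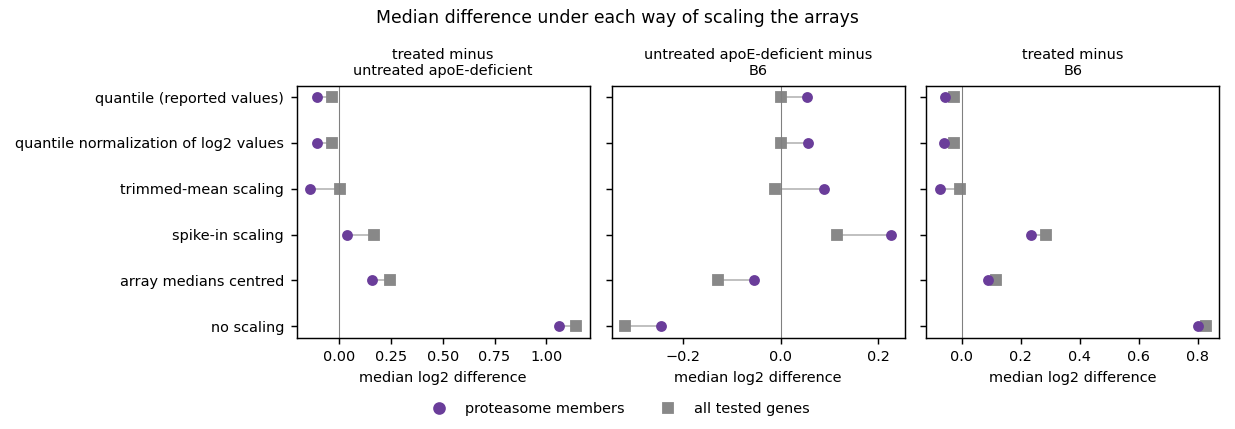
Median log2 difference of the proteasome members (circles) and of all tested genes (squares) in the 3 comparisons under 6 ways of scaling the arrays, with no error drawn. The sign of both medians depends on the scaling, from -0.14 to 1.06 for the members in treated against untreated apoE-deficient hearts, while the circle stays left of the square in that panel and right of it in untreated apoE-deficient against B6 hearts.

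Of the 3 constitutive catalytic subunits, Psmb5 and Psmb6 fell in treated hearts against both other groups, while the call of Psmb7 depended on the scaling. Psmb5, which cuts after hydrophobic residues, had log2 levels of 11.27 and 11.38 in treated, 11.60 and 11.64 in untreated apoE-deficient and 11.47 and 11.53 in B6 hearts. The treated arrays lay below all others, and the untreated apoE-deficient arrays above all others. Such positions are descriptions, here and below. For 2 arrays against 2, groups that do not overlap give p = 0.333 in an exact two-sided permutation test. How many of all tested genes had groups without overlap was not counted. The log2 difference was -0.29 ± 0.05 (SE) against untreated apoE-deficient hearts (limma adjusted p = 0.0037) and -0.17 ± 0.05 against B6 (adjusted p = 0.049). Psmb6, which cuts after acidic residues, read 11.31 and 11.34 in treated, 11.56 and 11.57 in untreated apoE-deficient and 11.51 and 11.64 in B6 hearts. Here the treated arrays lay below the other 4, which overlapped. The log2 difference was -0.24 ± 0.05 against untreated apoE-deficient (limma adjusted p = 0.010) and -0.25 ± 0.05 against B6 hearts (adjusted p = 0.011). Psmb7, which cuts after basic residues, read 12.85 and 12.90 in treated, 12.93 and 12.93 in untreated apoE-deficient and 12.91 and 12.96 in B6 hearts, with log2 differences of -0.05 and -0.06 from these groups, and passed in no comparison. Under other scalings Psmb7 was called lower against untreated apoE-deficient hearts, by -0.53 after trimmed-mean scaling, -0.36 after scaling to the spike-in controls and -0.21 with medians centred, and against B6 by -0.40 and -0.22 under the first and last of these. The contrast in calls between Psmb7 and the other 2 thus depends on the scaling, and the difference itself was not tested. On unscaled signals Psmb7 turned to 0.69 and 0.49, and Psmb5 and Psmb6 turned to 0.78 and 0.84 against untreated apoE-deficient hearts, less than the median of 1.14 over all genes. With medians centred both calls against untreated apoE-deficient hearts were lost (-0.12 and -0.06), and against B6 Psmb5 and Psmb6 gave -0.07 and -0.15 with medians centred and 0.07 and -0.01 when scaled to the spike-in controls. The call of Psmb5 against B6 was lost without any single array except treated array 2 (-0.12 to -0.20); that of Psmb6 was lost against untreated apoE-deficient hearts without either of their arrays (-0.25 and -0.23) and against B6 without B6 array 2 (-0.19).

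The immunoproteasome subunits went the other way in part. Psmb8, which takes the place of Psmb5, had log2 levels of 8.88 and 8.90 in treated, 8.37 and 8.38 in untreated apoE-deficient and 8.40 and 8.20 in B6 hearts. Both treated arrays lay above all others, and the other groups overlapped. It rose by 0.52 ± 0.10 (SE), or 1.43-fold, against untreated apoE-deficient hearts (limma adjusted p = 0.0066) and by 0.58 ± 0.10, or 1.50-fold, against B6 hearts (adjusted p = 0.0043). The first of these calls held in 17 of the 18 alternatives, all but the fit without an intensity trend, and so did the second. Among the alternatives were the unscaled signals, which called 47 members higher in the first comparison and 46 in the second. That alternative therefore says little about Psmb8. Psmb8 had 2 probe sets, and the dimmer one stayed below the filter and was not tested. Averaging the probe sets of a gene therefore could not change Psmb8.

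Psmb9, which takes the place of Psmb6, read 8.24 and 8.28 in treated, 7.60 and 7.88 in untreated apoE-deficient and 7.38 and 7.88 in B6 hearts. The treated arrays lay above all others, but the 2 arrays of each other group were far apart. The log2 difference was 0.52 ± 0.18 (SE) against untreated apoE-deficient hearts, which did not pass (limma adjusted p = 0.069), and 0.63 ± 0.18 against B6 hearts, which did (adjusted p = 0.041). The first difference passed in 7 of the 18 alternatives, at 0.63 after trimmed-mean scaling, 0.80 after scaling to the spike-in controls, 0.90 with medians centred and 1.81 on unscaled signals, and with the replicate block or without either B6 array, at 0.52. Unscaled signals called all 47 tested members higher in that comparison. The call against B6 was lost without B6 array 1, at 0.38, and without treated array 1 or 2, at 0.65 and 0.62.

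Psmb10, which takes the place of Psmb7, followed neither. It read 9.85 and 10.14 in treated, 10.10 and 10.18 in untreated apoE-deficient and 9.78 and 9.79 in B6 hearts. Both apoE-deficient groups lay above B6, and they overlapped each other. Against B6 the untreated apoE-deficient hearts were higher by 0.36, as given above, a call that was lost in 10 of the 18 alternatives, among them leaving out any of the 4 arrays compared. Treated hearts differed from B6 by 0.22 ± 0.09 (limma adjusted p = 0.16) and from untreated apoE-deficient hearts by -0.14 ± 0.09 (adjusted p = 0.32). The former passed at 0.53 when scaled to the spike-in controls, 0.39 with medians centred and 0.37 without treated array 1, and the latter at -0.28 without treated array 2.

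**Figure D3:**
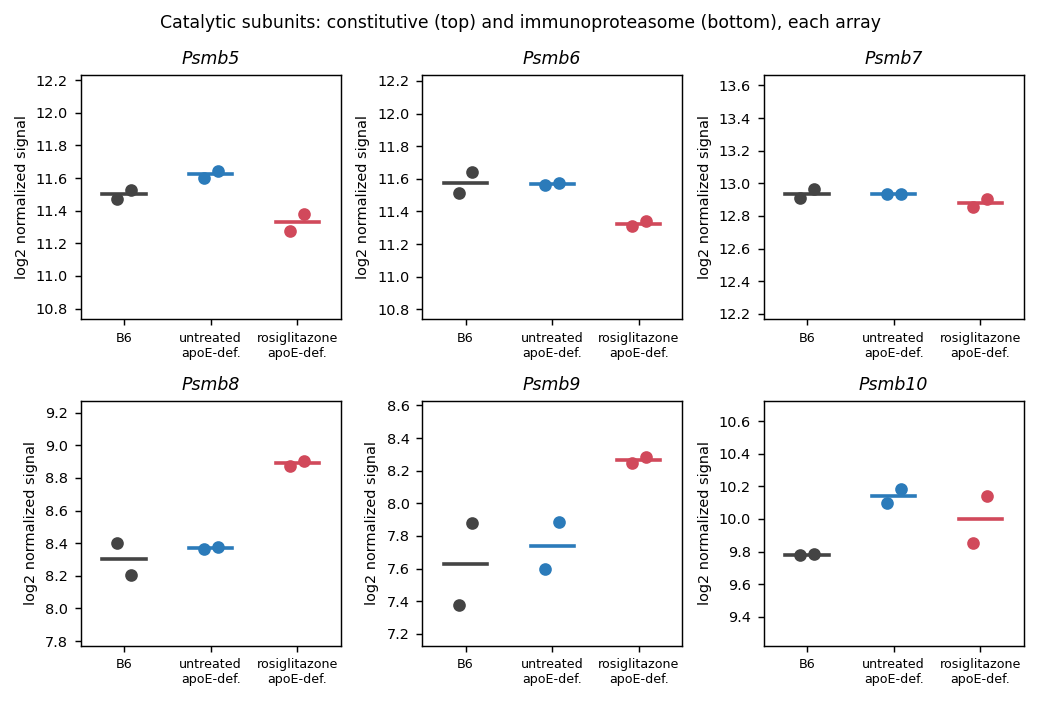
Log2 normalized signal of the constitutive catalytic subunits (top) and of the immunoproteasome subunits (bottom); each point is 1 array, by group, and the short line is the group mean. The treated arrays of Psmb5 and Psmb6 lie below the other 4 arrays, those of Psmb8 and Psmb9 lie above them, and Psmb10 is lowest in B6 hearts; on unscaled signals all 6 genes would be highest on the treated arrays.

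To compare the 2 forms of the core, each immunoproteasome subunit was set against the constitutive subunit it replaces on the same array, so that a factor common to the array drops out. The differences were taken after quantile normalization, which does not change all signals of an array by a common factor. They therefore still depend on the scaling, as given below. Only the change of this within-array difference between groups is read, since levels of different probes are not comparable. Psmb8 minus Psmb5 changed by 0.81 between untreated apoE-deficient and treated hearts, 1.75-fold in favour of Psmb8. Relative to the B6 mean it was 0.80 and 0.72 in treated hearts, -0.04 and -0.07 in untreated apoE-deficient hearts and 0.13 and -0.13 in B6 hearts. Psmb9 minus Psmb6 changed by 0.76, or 1.70-fold, and relative to the B6 mean it was 0.88 and 0.89 on treated, -0.02 and 0.26 on untreated apoE-deficient and -0.19 and 0.19 on B6 arrays. In both pairs the treated arrays stood apart from the other 4, which overlapped.

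Psmb10 minus Psmb7 behaved differently after quantile normalization. Relative to the B6 mean it was 0.16 and 0.39 on treated, 0.32 and 0.40 on untreated apoE-deficient and 0.02 and -0.02 on B6 arrays, so both apoE-deficient groups lay above B6 and overlapped each other. Its change was -0.09 between untreated apoE-deficient and treated hearts, 0.36 between B6 and untreated apoE-deficient hearts and 0.27 between B6 and treated hearts. With unscaled signals and with linear scaling the first of these turned to between 0.37 and 0.38, so that only its sign after quantile normalization was negative. On unscaled signals the treated arrays lay above all others in this pair, as in the other pairs. The overlap of the apoE-deficient groups thus depends on quantile normalization. The change between B6 and treated hearts was also larger on unscaled signals. Without treated array 1 the change between untreated apoE-deficient and treated hearts was 0.03 after quantile normalization. The cause of the turn was not tested.

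With 2 arrays against 2 the exact two-sided permutation test cannot go below p = 0.333. That p was reached by Psmb8 minus Psmb5 and Psmb9 minus Psmb6 in treated against both other groups, and by Psmb10 minus Psmb7 in each apoE-deficient group against B6. Over the 9 tests of pairs the Benjamini-Hochberg adjusted p ran from 0.5 to 1. The mean over the 3 pairs, given as a description, was higher by 0.50 in treated than in untreated apoE-deficient hearts and by 0.64 than in B6 hearts. Untreated apoE-deficient hearts differed from B6 by 0.14. Linear scaling or none moved these means to 0.78 to 0.81, 0.81 to 0.83 and 0.01 to 0.03.

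**Figure D4:**
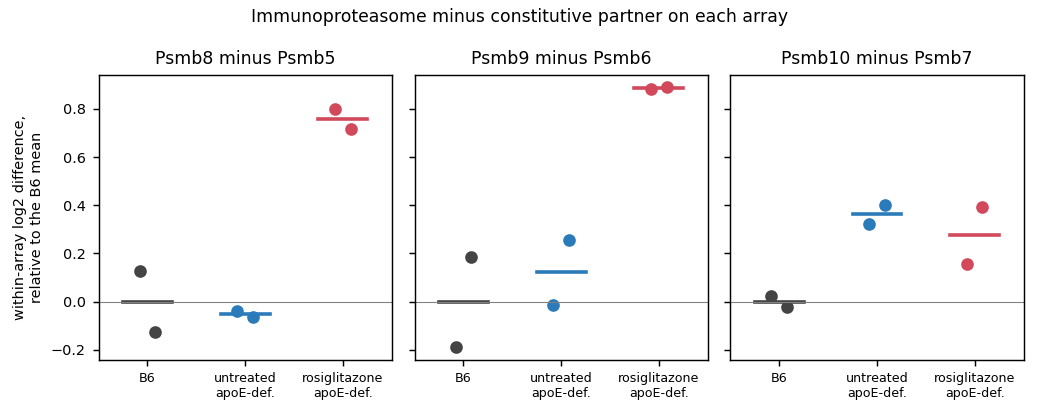
Within-array log2 difference between each immunoproteasome subunit and the constitutive subunit it replaces, relative to the mean of the B6 arrays; each point is 1 array, by group. Psmb8 minus Psmb5 and Psmb9 minus Psmb6 are between 0.72 and 0.89 on the treated arrays and at most 0.26 on the others, while Psmb10 minus Psmb7 overlaps between the treated and untreated apoE-deficient groups. Unscaled signals put that last pair higher in treated hearts by 0.37, and these groups then do not overlap.

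Among the remaining core subunits, few of the chosen probe sets passed. Of the 7 alpha subunits, which form the outer rings, Psma3 alone rose against untreated apoE-deficient hearts, and Psma3 and Psma1 rose against B6. Psma3 read 11.58 and 11.50 in treated, 11.30 and 11.28 in untreated apoE-deficient and 11.32 and 11.19 in B6 hearts. Its treated arrays were the highest, with a log2 difference of 0.25 ± 0.06 (SE; limma adjusted p = 0.013) against untreated apoE-deficient hearts, lost in 6 of the 18 alternatives, among them leaving out treated array 1 (0.21) or either untreated apoE-deficient array (0.26 and 0.23). Its call against B6 was lost without treated array 1 (0.25) or B6 array 2 (0.22). Psma1 read 11.12 and 10.93 in treated, 10.82 and 10.89 in untreated apoE-deficient and 10.79 and 10.71 in B6 hearts. Its groups did not overlap in any comparison, and the difference of treated hearts from B6 was 0.27 ± 0.07 (limma adjusted p = 0.029), lost without treated array 1 (0.18) or either B6 array (0.31 and 0.23). Against untreated apoE-deficient hearts Psma1 differed by 0.17, which passed at 0.26 when scaled to the spike-in controls, at 0.40 with medians centred and at 0.27 without treated array 2. The other alpha subunits ranged from -0.21 for Psma2 to 0.16 for Psma7 against untreated apoE-deficient hearts, and none of them passed in any comparison.

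Of the 4 structural beta subunits, which complete the inner rings without cutting, Psmb3 fell against untreated apoE-deficient hearts. It read 11.21 and 11.22 in treated, 11.42 and 11.41 in untreated apoE-deficient and 11.33 and 11.45 in B6 hearts, with a log2 difference of -0.20 ± 0.05 (SE; limma adjusted p = 0.025). The call was lost without any 1 of the 4 arrays compared (-0.19 to -0.21), and a dimmer probe set of the gene gave -0.08 and did not pass. Psmb1 read 11.06 and 11.06 in treated, 11.17 and 11.23 in untreated apoE-deficient and 11.04 and 11.02 in B6 hearts, so that the untreated apoE-deficient arrays were the highest, without passing (0.17 ± 0.05 against B6, limma adjusted p = 0.061). Against untreated apoE-deficient hearts Psmb1 gave -0.14, which passed at -0.24 after trimmed-mean scaling and at -0.36 with its probe sets averaged. Psmb2 and the chosen probe set of Psmb4 passed in no comparison. A dimmer probe set of Psmb4 was called higher by 1.09 ± 0.24 against untreated apoE-deficient hearts (limma adjusted p = 0.013) and by 0.90 ± 0.24 against B6 (adjusted p = 0.037), where the chosen one gave -0.05 and -0.12, so Psmb4 has no settled value.

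The 6 ATPases, which form the unfolding ring, did not move as one. Psmc3 read 11.24 and 11.33 in treated, 11.66 and 11.62 in untreated apoE-deficient and 11.60 and 11.58 in B6 hearts. The treated arrays lay below all others. It had the smallest p of all members against untreated apoE-deficient hearts, at -0.36 ± 0.05 (SE; limma adjusted p = 0.00086), and fell against B6 by 0.30 on the log2 scale (adjusted p = 0.0026). The first call held in 16 of the 18 alternatives and was lost without an intensity trend and on unscaled signals, where the value turned to 0.72.

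Psmc4 was the opposite. It read 10.74 and 10.92 in treated, 10.29 and 10.45 in untreated apoE-deficient and 10.35 and 9.79 in B6 hearts. The treated arrays were the highest and the B6 arrays far apart. Against B6 the log2 difference was 0.76 ± 0.15, or 1.69-fold (limma adjusted p = 0.010), and against untreated apoE-deficient hearts 0.46 ± 0.15, which did not pass (adjusted p = 0.068) but did when scaled to the spike-in controls (0.59) or with medians centred (0.73). The call against B6 was lost without treated array 2 (0.68), and a second probe set of Psmc4 gave 0.20 and did not pass. Psmc1 read 10.44 and 10.36 in treated, 10.40 and 10.41 in untreated apoE-deficient and 10.26 and 10.24 in B6 hearts, with B6 lowest and no call. Psmc5 passed in no comparison, nor did the chosen probe sets of Psmc2 and Psmc6. Another probe set of Psmc2 was called lower by -0.34 ± 0.06 against untreated apoE-deficient hearts (limma adjusted p = 0.0056) and by -0.25 ± 0.06 against B6 (adjusted p = 0.030), where the chosen one gave -0.05 and 0.00. Another probe set of Psmc6 was called higher by 0.26 ± 0.07 against untreated apoE-deficient hearts (adjusted p = 0.026), opposite in sign to the -0.17 of the chosen one.

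The non-ATPase subunits of the regulatory particle held 5 of the 12 falls. Of the 11, those 5 fell against untreated apoE-deficient hearts and none rose. Psmd2, a large scaffold that docks ubiquitin carriers, read 11.42 and 11.57 in treated, 11.99 and 11.89 in untreated apoE-deficient and 11.71 and 11.75 in B6 hearts. The 3 groups did not overlap, with untreated apoE-deficient hearts on top and treated hearts at the bottom. The log2 difference of treated from untreated apoE-deficient hearts was -0.44 ± 0.06 (SE; limma adjusted p = 0.00090), from B6 -0.24 ± 0.06 (adjusted p = 0.026), and that of untreated apoE-deficient from B6 hearts 0.21 ± 0.06, which did not pass (adjusted p = 0.071). The call against B6 was lost without treated array 1 (-0.17) or either B6 array (-0.25 and -0.21).

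Psmd3, a scaffold of the lid, read 10.18 and 10.00 in treated, 10.55 and 10.50 in untreated apoE-deficient and 10.40 and 10.04 in B6 hearts. It fell by 0.43 on the log2 scale against untreated apoE-deficient hearts (SE 0.11; limma adjusted p = 0.025), while treated and B6 arrays overlapped. Psmd13, also of the lid, read 9.48 and 9.47 in treated, 9.74 and 9.75 in untreated apoE-deficient and 9.60 and 9.55 in B6 hearts, and fell against untreated apoE-deficient hearts by 0.27 (SE 0.06; adjusted p = 0.019). Psmd1, the other large scaffold of the base, read 10.85 and 10.91 in treated, 11.07 and 11.07 in untreated apoE-deficient and 11.03 and 11.04 in B6 hearts, a fall by 0.19 (SE 0.05; adjusted p = 0.020). In Psmd13, as in Psmd2, B6 lay between the apoE-deficient groups without touching either. When scaled to the spike-in controls Psmd3, Psmd13 and Psmd1 gave -0.30, -0.07 and -0.11 against untreated apoE-deficient hearts and did not pass. With medians centred Psmd3 gave -0.16 without passing, and Psmd13 and Psmd1 turned to 0.06 and 0.04. The median of all genes was then 0.24. The falls of Psmd13 and Psmd1 were lost without either untreated apoE-deficient array or treated array 1 (Psmd13 -0.26 to -0.27, Psmd1 -0.17 to -0.19), that of Psmd13 also without treated array 2, and that of Psmd3 without either untreated apoE-deficient array or treated array 2 (-0.34 to -0.45).

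Psmd6 is uncertain. Its brightest probe set read 11.05 and 11.03 in treated, 11.27 and 11.24 in untreated apoE-deficient and 11.10 and 11.17 in B6 hearts and fell by 0.22 (SE 0.05; limma adjusted p = 0.012). Its other probe set rose by 0.28 in the same comparison (adjusted p = 0.013) and by 0.24 against B6 (adjusted p = 0.029), so the gene has no settled direction. Without untreated apoE-deficient array 1 the first call was lost (-0.20).

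Psmd14, the lid protease that cuts ubiquitin off the substrate, stood out among these subunits by rising against B6. It read 10.68 and 10.66 in treated, 10.52 and 10.50 in untreated apoE-deficient and 10.42 and 10.38 in B6 hearts, and the 3 groups did not overlap. The log2 difference from B6 was 0.27 ± 0.05 (SE; limma adjusted p = 0.0076; lost without B6 array 2, at 0.25), and that from untreated apoE-deficient hearts 0.16 ± 0.05 (adjusted p = 0.061; past the threshold at 0.28 when scaled to the spike-in controls and 0.42 with medians centred). The other 5, Psmd4, Psmd7, Psmd8, Psmd11 and Psmd12, passed in no comparison, with differences from -0.14 to 0.13 between treated and untreated apoE-deficient hearts. Psmd11 had 8 probe sets and was read from the brightest. A dimmer one fell by 0.48 (limma adjusted p = 0.014) where the brightest gave 0.13, and by 0.52 against B6 (adjusted p = 0.011).

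The 7 assembly chaperones help to build the particles and leave before the proteasome works. Psmg1 and Psmg2, which form a pair that starts the alpha ring, both fell against untreated apoE-deficient hearts. Psmg1 read 8.98 and 9.05 in treated, 9.41 and 9.38 in untreated apoE-deficient and 9.18 and 9.11 in B6 hearts, and its log2 difference was -0.38 ± 0.07 (SE; limma adjusted p = 0.0075). Psmg2 read 9.26 and 9.34 in treated, 9.55 and 9.57 in untreated apoE-deficient and 9.33 and 9.43 in B6 hearts, and its difference was -0.26 ± 0.07 (adjusted p = 0.033). In both the untreated apoE-deficient arrays were the highest, yet neither differed from B6 past the threshold (0.24 and 0.19; adjusted p = 0.091 and 0.17). The fall of Psmg1 was lost without treated array 1 (-0.35), and that of Psmg2 without any 1 of the 4 arrays compared (-0.23 to -0.30). Scaling mattered too. Psmg1 lost its call when scaled to the spike-in controls (-0.16) and with medians centred (-0.03). Psmg2 lost its call after trimmed-mean scaling (-0.23) and when scaled to the spike-in controls (-0.05), and with medians centred it turned to 0.08. The other tested probe sets of Psmg2 gave 0.12 ± 0.08 and -0.74 ± 0.34 between treated and untreated apoE-deficient hearts, and neither passed. Psmg3 and Psmg4, the other alpha ring pair, and Psmd5, Psmd9 and Psmd10, which guide the ATPase ring, passed in no comparison.

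Activators open the core without the regulatory particle. Psme1, which forms a cap with Psme2 and is induced by interferon, read 11.46 and 11.51 in treated, 11.78 and 11.64 in untreated apoE-deficient and 11.79 and 11.71 in B6 hearts. The treated arrays lay below all others, unlike those of the interferon-induced Psmb8. The log2 difference was -0.22 ± 0.05 (SE; limma adjusted p = 0.021) against untreated apoE-deficient hearts and -0.26 ± 0.05 (adjusted p = 0.012) against B6. On unscaled signals these turned to 0.84 and 0.54. The first call was lost without treated array 1 (-0.20) or untreated apoE-deficient array 1 (-0.15), and the second without treated array 1 (-0.25) or B6 array 1 (-0.22).

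Psme3, the nuclear activator, read 8.97 and 8.87 in treated, 8.86 and 9.14 in untreated apoE-deficient and 8.82 and 8.56 in B6 hearts and passed in no comparison. Psme4, a large single-chain activator, read 12.35 and 12.40 in treated, 12.10 and 12.18 in untreated apoE-deficient and 12.18 and 12.16 in B6 hearts. It was called higher by 0.23 ± 0.04 against untreated apoE-deficient hearts (limma adjusted p = 0.0044) and by 0.20 ± 0.04 against B6 (adjusted p = 0.011), with the treated arrays on top; under trimmed-mean scaling the first value was -0.04. The other 3 tested probe sets of Psme4 gave between -0.01 and 0.01 in the first comparison, so the call rests on 1 probe set. After scaling to the spike-in controls the first value was 0.13 and did not pass. The call against B6 was lost without either B6 array (0.21 and 0.19). Psmf1, an inhibitor of the core, read 8.28 and 8.36 in treated, 8.66 and 8.43 in untreated apoE-deficient and 8.58 and 8.76 in B6 hearts. Its treated arrays were the lowest, at -0.35 ± 0.11 against B6, which did not pass (adjusted p = 0.073). Its probe sets disagreed. A dimmer one was called lower in untreated apoE-deficient than in B6 hearts, by -1.49 ± 0.36 (adjusted p = 0.040) where the chosen one gave -0.12, and gave 0.91 ± 0.36 in treated against untreated apoE-deficient hearts, without passing (adjusted p = 0.11), where the chosen one gave -0.23.

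Of the 49 members, 27 had more than 1 probe set. Besides the ones chosen, 37 probe sets of 21 members were tested. In treated against untreated apoE-deficient hearts 10 of them belonged to a called member; 7 had the direction of the chosen probe set and 1, that of Psmd6, was called in the opposite one. Over all 37, 3 were called higher, those of Psmb4, Psmc6 and Psmd6, and 2 lower, those of Psmc2 and Psmd11; apart from Psmd6 these belong to members whose chosen probe set did not pass. In treated against B6 hearts 2 were higher and 2 lower, and in untreated apoE-deficient against B6 hearts 1 was lower, that of Psmf1. Psmc3ip and Psme3ip1, matched by symbol only, passed in no comparison, and the counts of calls are the same without them.

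Genes around the proteasome were read from 4 lists chosen for their known role. Their counts in treated against untreated apoE-deficient hearts stand beside 11.4% of all tested genes higher, 12.3% lower and a median of -0.03. Of 13 tested partners without a Psm symbol, 2 rose and 3 fell in treated against untreated apoE-deficient hearts, with a median log2 difference of 0.00. Ecpas, a scaffold that clamps the core to the regulatory particle, fell by 0.43 on the log2 scale (SE 0.07; limma adjusted p = 0.0022). Fbxo7, a ubiquitin ligase subunit that binds the inhibitor Psmf1, fell by 0.51 (SE 0.12; adjusted p = 0.017). Sem1, a small lid subunit, fell by 0.14 (SE 0.04; adjusted p = 0.039). Usp14, a deubiquitinase of the regulatory particle, rose by 0.41 ± 0.11 (adjusted p = 0.028), and by 0.48 ± 0.11 against B6 (adjusted p = 0.016). Txnl1, a thioredoxin-like protein bound to the regulatory particle, rose by 0.21 ± 0.05 (adjusted p = 0.025). Pomp, the chaperone that closes the core, had a difference of 0.00 ± 0.05 (adjusted p = 0.99). On unscaled signals Ecpas, Fbxo7 and Sem1 turned to 0.78, 0.77 and 0.92, below the median of all genes. The call of Ecpas held without each array in turn but was lost with medians centred (-0.12) and with its probe sets averaged (-0.01). That of Fbxo7 was lost without treated array 1 or either untreated apoE-deficient array (-0.44 to -0.55), and that of Sem1 without any single array except treated array 2 (-0.12 to -0.14) and with probe sets averaged (-0.06). With medians centred Fbxo7 was -0.13 and Sem1 0.02, without passing. Usp14 lost its call without either treated array or untreated apoE-deficient array 1 (0.23 to 0.44) and with probe sets averaged (0.09), and Txnl1 without any 1 of the 4 arrays compared (0.18 to 0.24), after trimmed-mean scaling (0.11) and with probe sets averaged (0.13).

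Of 12 tested genes of proteasome gene regulation, 1 rose and 4 fell in the same comparison, with a median of -0.19. Nfe2l1, the factor that restores subunit genes, had a log2 difference of -0.23 ± 0.09 (SE; limma adjusted p = 0.11), and Nfe2l2, the antioxidant factor, -0.14 ± 0.05 (adjusted p = 0.096). Neither passed. Foxo4, a forkhead factor, fell by 0.67 (SE 0.12; adjusted p = 0.0045) and Mafk, a partner of both Nfe2l factors on antioxidant elements, by 0.45 (SE 0.08; adjusted p = 0.0060). Mafk was higher in untreated apoE-deficient than in B6 hearts by 0.62 ± 0.08 (adjusted p = 0.0041). The subunits of the factor that binds CCAAT boxes did not move together. Nfyb rose by 0.64 ± 0.15 (adjusted p = 0.016), lost without either treated array or untreated apoE-deficient array 1 (0.59 to 0.66) and with probe sets averaged (0.43). Nfya fell by 0.48 (SE 0.13; adjusted p = 0.029), lost without either treated array or untreated apoE-deficient array 2 (-0.36 to -0.51) and under each linear scaling (-0.09 to -0.36). Nfyc gave -0.03 and did not pass, but fell by 0.25 against B6 (SE 0.07; adjusted p = 0.035), lost without any 1 of the 4 arrays compared (-0.20 to -0.29). Mafg, a relative of Mafk, fell by 0.39 (SE 0.10; adjusted p = 0.019), lost without any 1 of the 4 arrays compared (-0.37 to -0.42) and under each linear scaling (-0.01 to -0.29). With medians centred Foxo4 and Mafk were -0.29 and -0.09, and when scaled to the spike-in controls Mafk was -0.21, and these did not pass. On unscaled signals Foxo4, Mafk, Nfya and Mafg turned to 0.61, 0.81, 0.81 and 0.89 against untreated apoE-deficient hearts.

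Of 19 tested genes of ubiquitin supply, shuttles and extraction, 2 rose and 6 fell in treated against untreated apoE-deficient hearts, with a median of -0.11. Sqstm1, the autophagy receptor that also carries ubiquitinated proteins, fell by 0.52 (SE 0.04; limma adjusted p = 3.5e-05), and in untreated apoE-deficient hearts it stood above B6 by 0.46 ± 0.04 (adjusted p = 0.00031). Herpud1, a membrane protein of the degradation of proteins from the endoplasmic reticulum, fell by 0.35 (SE 0.05; adjusted p = 0.00086). Stub1, a ubiquitin ligase that works with chaperones, fell by 0.28 (SE 0.04; adjusted p = 0.0028), and Faf1, an adaptor of the extraction ATPase Vcp, by 0.37 (SE 0.06; adjusted p = 0.0026). Ubqln2, a shuttle factor, rose by 0.55 ± 0.07 (adjusted p = 0.00060), and untreated apoE-deficient hearts differed from B6 by -0.53 ± 0.07. With the probe sets of a gene averaged, Ubqln2 gave 0.06 and 0.10 and Sqstm1 -0.19 and 0.03 in these comparisons, and none of the 4 passed; Faf1 gave -0.19 in the first and did not pass either. With medians centred the calls of Herpud1, Stub1 and Faf1 were lost (-0.18, -0.07 and -0.10). On unscaled signals Sqstm1, Herpud1, Stub1 and Faf1 turned to 0.46, 0.72, 0.83 and 0.80.

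Of 15 tested genes of antigen processing, 4 rose and 1 fell in treated against untreated apoE-deficient hearts, with a median of 0.14. Tapbp, which holds MHC class I at the peptide transporter, rose by 0.41 ± 0.06 (SE; limma adjusted p = 0.0013). H2-K1 and H2-D1, the class I heavy chains, rose by 0.22 ± 0.04 and 0.27 ± 0.05 (adjusted p = 0.0073 and 0.0038). After trimmed-mean scaling H2-K1 turned to -0.05 and H2-D1 was 0.02, after scaling to the spike-in controls they were 0.13 and 0.20, and neither passed under either; H2-K1 was also lost without untreated apoE-deficient array 1 (0.20) and with probe sets averaged (0.20). Cd74, the invariant chain of class II, rose by 0.24 ± 0.06 (adjusted p = 0.017), lost without any 1 of the 4 arrays compared (0.22 to 0.25) and after trimmed-mean scaling (0.15). Calr, a chaperone of the class I loading complex, fell by 0.21 (SE 0.04; adjusted p = 0.0066), lost with medians centred (-0.10) and without untreated apoE-deficient array 2 (-0.19), and turned to 0.80 on unscaled signals. The transporter genes Tap1 and Tap2 had differences of 0.17 ± 0.17 and -0.01 ± 0.11, and neither passed. Irf1 and Nlrc5, which drive class I and immunoproteasome genes, had 0.05 ± 0.09 and 0.28 ± 0.23 and did not pass. H2-K1 and H2-D1 belong to a family of near-identical genes, so their probes may share transcripts.

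Immunoproteasome subunits are abundant in leukocytes, so markers of these cells were read beside them. Of 15 leukocyte markers tested, 4 rose and 2 fell in treated against untreated apoE-deficient hearts, 4 were higher and 1 lower in untreated apoE-deficient than in B6 hearts, and 5 were higher and 1 lower in treated than in B6 hearts, where 11.4% and 12.3%, 3.85% and 4.66%, and 8.78% and 9.87% of all tested genes were. The summed signal of the list was 11829 to 12194 on treated, 10240 to 10490 on untreated apoE-deficient and 8695 to 9166 on B6 arrays, so it rose in the order of B6, untreated apoE-deficient and treated. Such a sum is weighted to the brightest genes, and 9 of the 15 markers did not pass in treated against untreated apoE-deficient hearts. Cd74 is in both this list and that of antigen processing, so the lists are not separate. In bulk hearts, more cells of a type and more RNA per cell cannot be told apart. Of 7 airway and lung markers tested, 4 rose and none fell in treated against untreated apoE-deficient hearts, and of 7 adipocyte markers 6 rose and none fell. Of 10 heart muscle markers, 5 fell and 2 rose, with a summed signal of 145080 to 150432 on treated, 157116 to 157935 on untreated apoE-deficient and 161113 to 161267 on B6 arrays. The part of these cell types in the changes of Psmb8, Psmb9 and the constitutive subunits was not tested.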

How the data were processed

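Per the labels' protocols, heart RNA was purified on columns, turned into biotinylated cRNA and hybridised to Affymetrix arrays. The deposited table holds a linear intensity for each probe set and array, made with GCOS per the submitters' processing notes; for its version, background correction and target scaling, the sources used here give nothing. Signals of 45037 non-control probe sets were quantile-normalized as linear values, and log2 was taken after adding 11.1 (the 25th percentile). Probe sets with a mean above the 40th percentile, 27022 in all, entered a linear model of limma 3.58.1 (R 4.3.3; lmFit, then eBayes with an intensity trend) that covered the 3 groups together and left 3 residual degrees of freedom; Benjamini-Hochberg adjustment ran over all of them and the threshold was 0.05. Background counts use 1 probe set for each gene. The number of arrays limits the precision.

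Symbols came from GEO's platform annotation, and upstream sequences from RefSeq on GRCm38.p6. Values on all arrays are given for the catalytic subunits, the activators and inhibitor, and the 8 other members with the smallest p in each comparison; of the other lists, called genes among the 5 smallest p-values of treated against untreated apoE-deficient hearts are named (the rule said 4), and others named were chosen after their values were seen. Members and lists were chosen with earlier results of these data known. Markers of endothelium, fibroblasts, thymus and red blood cells were also counted: in treated against untreated apoE-deficient hearts 3 of 8, 6 of 8, 1 of 4 and 0 of 3 tested genes were higher, and 1, 0, 0 and 2 lower. Alternatives changed the scaling, pseudocount, filter, variance model, probe set rule, pairing and arrays; the fits were tested on simulated data.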

Additional observations from a re-analysis of the deposited data

How the results depend on the processing

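Absolute directions depended on how the arrays were scaled, and calls on the variance model; how array brightness, which followed group, bears on them was not tested. Without an intensity trend 0 members passed in either direction in all 3 comparisons; at an unadjusted p under 0.05 that limma fit gave 3 higher and 8 lower in treated against untreated apoE-deficient hearts, 2 and 0 in untreated apoE-deficient against B6 and 5 and 4 in treated against B6 hearts. Precision is limited by 2 arrays a group, and for Psma8 and Psmb11 by their dim signal.

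Calls among all tested genes were counted for the reported fit only, so the counts below stand without such a share. Counts of members called higher and lower in treated against untreated apoE-deficient hearts, 3 and 12 as reported, were 47 and 0 without scaling, 7 and 6 with spike-in scaling and 12 and 3 with array medians centred. The count higher was 5 with a filter at the 60th percentile. Leaving out 1 array gave 2 to 5 higher and 4 to 12 lower. In untreated apoE-deficient against B6 hearts the count higher, 1 as reported, was 3 with trimmed-mean and 17 with spike-in scaling, 2 with the filter at the 60th percentile, and 0 without scaling, with medians centred, with a pseudocount of 1, with no filter and with probe sets averaged; leaving out 1 array gave 0 to 2. In treated against B6 hearts 7 higher and 5 lower became 46 and 0 without scaling, 4 and 9 when scaled to trimmed means, 24 and 0 when scaled to spike-in controls and 12 and 1 with medians centred; 4 were higher with probe sets averaged, and leaving out 1 array gave 4 to 7 higher and 2 to 5 lower.

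The mean change of the 3 pairs of immunoproteasome and constitutive subunits kept its sign in every alternative run. In treated against untreated apoE-deficient hearts, 0.50 as reported, it was 0.78 without scaling or with medians centred and 0.81 when arrays were scaled to trimmed means or to spike-in controls, and 0.44 to 0.55 without 1 array. In untreated apoE-deficient against B6 hearts, 0.14 as reported, it was 0.028 without scaling or with medians centred, 0.015 with trimmed-mean and 0.011 with spike-in scaling, and 0.091 to 0.20 without 1 array. In treated against B6 hearts, 0.64 as reported, it was 0.81 without scaling or with medians centred, 0.83 with trimmed-mean and 0.82 with spike-in scaling, 0.59 with a pseudocount of 50, and 0.62 to 0.67 without 1 array. The Psmb10 minus Psmb7 change in treated against untreated apoE-deficient hearts turned from -0.09 to 0.37 without scaling or with medians centred, 0.38 when scaled to trimmed means or to spike-in controls, and without 1 array it ran from -0.21 to 0.033, the latter without treated replicate 1. Psmb8 minus Psmb5 in untreated apoE-deficient against B6 hearts turned from -0.05 to 0.074 without B6 replicate 1, in a range of -0.18 to 0.074 without 1 array.

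A gene is called reversed here only where its sign changed and the reported or the alternative value passed the threshold. Changes of sign where neither value passed are not listed. The sign is that of the difference from 0, not from the median of all genes. In treated against untreated apoE-deficient hearts that median was 1.14 without scaling and 0.24 with medians centred. In treated against B6 hearts it was 0.83 without scaling and 0.29 with spike-in scaling. Reversed log2 differences without scaling were, in treated against untreated apoE-deficient hearts, Psmb1 0.98, Psmb3 0.91, Psmb5 0.78, Psmb6 0.84, Psmb7 0.69, Psmb10 1.06, Psmc1 1.17, Psmc3 0.72, Psmd1 0.94, Psmd2 0.61, Psmd3 0.74, Psmd6 0.91, Psmd13 0.96, Psmg1 0.87, Psmg2 0.98, Psme1 0.84, Psme3 1.19, Psmf1 1.06, Sem1 0.92, Ecpas 0.78, Fbxo7 0.77, Mafk 0.81, Foxo4 0.61, Faf1 0.80, Stub1 0.83, Sqstm1 0.46, Nfya 0.81, Mafg 0.89, Herpud1 0.72 and Calr 0.80. In treated against B6 hearts they were Psmb3 0.64, Psmb5 0.64, Psmb6 0.56, Psmb7 0.49, Psmc3 0.51, Psmd1 0.67, Psmd2 0.57, Psmd3 0.73, Psmd6 0.73, Psmd13 0.80, Psmg1 0.77, Psmg2 0.82, Psme1 0.54, Psmf1 0.57, Sem1 0.58, Ecpas 0.53, Zfand5 0.57, Foxo4 0.084, Faf1 0.60, Stub1 0.51, Herpud1 0.61, Calr 0.43 and Nfyc 0.64, and in untreated apoE-deficient against B6 hearts H2-K1 -0.055. With medians centred the reversed values, all in treated against untreated apoE-deficient hearts, were Psmb3 0.0079, Psmc1 0.27, Psmd1 0.036, Psmd6 0.0043, Psmd13 0.061, Psmg2 0.081 and Sem1 0.018. With trimmed-mean scaling they were Psme4 -0.045 and H2-K1 -0.049 in the same comparison. With spike-in scaling they were Psmb5 0.068, Psmd13 0.23, Psmg2 0.25, Sem1 0.0028, Faf1 0.032, Herpud1 0.038 and Nfyc 0.075 in treated against B6 hearts and Psmb7 0.27 in untreated apoE-deficient against B6 hearts. With the probe sets of a gene averaged they were Psmd6 0.030 in treated against untreated apoE-deficient, Zfand5 0.047, Ubqln2 0.098 and H2-D1 -0.016 in untreated apoE-deficient against B6 and Faf1 0.026 in treated against B6 hearts. In this sense none of the named genes reversed with quantile normalization of log2 values, another pseudocount, another filter, no intensity trend, the replicate block or 1 array left out. Signs of differences that did not pass could still change.

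The replicate numbers did not pair the arrays: deviations of same-numbered arrays correlated at -0.0063 between treated and untreated apoE-deficient hearts, 0.033 between treated and B6 and 0.020 between untreated apoE-deficient and B6 hearts. With the number as a replicate block, 4 members were higher and 13 lower in treated against untreated apoE-deficient hearts, 1 and 0 in untreated apoE-deficient against B6, and 7 and 5 in treated against B6 hearts.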
